A study of Mus musculus with 2 samples.

Results

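Genes of the mesothelial layer were examined in total RNA of mouse embryonic liver. The set was a list of 9 symbols (Wt1, Upk3b, Upk1b, Msln, Lrrn4, Gpm6a, Podxl, Alcam and Muc16), taken as the rows whose Ensembl identifier carries that symbol. Of these, 8 had a row among the 43346 mouse genes of the tables; Muc16, a cell surface mucin, is not analysed here. The tissue was liver of B6NCrl embryos at 11.5 days, untreated, pooled from both sexes. Both libraries form 1 group: replicate 1 was a pool of 109 embryos and replicate 2 a pool of unstated size, each made from 10 ng of RNA. The labels give both as biological replicates, and their counts differed by more than sampling noise (chi-square of 10.3 per degree of freedom over 16607 genes). With no second condition, levels and the spread between the pools are described, and that spread is between pools and preparations, not single embryos.

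The mesothelium is the flat epithelium that covers organs and lines body cavities. Over the fetal liver it arises with the septum transversum, and in mice Wt1-positive mesothelial cells are known to give rise to hepatic stellate cells and other mesenchyme. Several of the listed genes are also used by other cells: Podxl by podocytes, endothelium and blood progenitors, Alcam by blood, endothelial and neural cells, and Gpm6a by neurons. In whole tissue, fewer cells of a type and less RNA per cell cannot be told apart.

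Depth was 34344230 estimated counts in replicate 1 and 31477397 in replicate 2. Spike-in control RNAs took 14.6% and 11.1% of TPM (a level per transcript length, scaled to the same sum over all features of a library). Liver and red cell markers were high, with Afp at 5077 ± 537 TPM, Alb at 609 ± 31.4 TPM and Klf1 at 377 ± 39.6 TPM. A value with ± is a mean with its SD (n = 2 libraries). Coordinates are those of GRCm38.

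The measured genes fell into 3 tiers. Alcam, Podxl, Upk3b and Wt1 lay between 16 and 23.7 TPM, Upk1b, Gpm6a and Lrrn4 between 2.81 and 4.53 TPM, and Msln at 0.220 TPM. A gene was called detected if neither library fell under a TPM of 1, which held for 7 of the 8; among 21474 protein-coding genes it held for 56.6%. The median of the 8 was 10.3 TPM in both libraries, against 2.82 and 2.87 TPM for all protein-coding genes and 16.2 and 17.3 TPM for those detected. From Msln to Alcam the mean level, with nothing added to it, spanned 108-fold, and among the 7 detected genes 8.45-fold. Together the 8 summed to 93.5 TPM and 91.0 TPM.

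**Figure D1:**
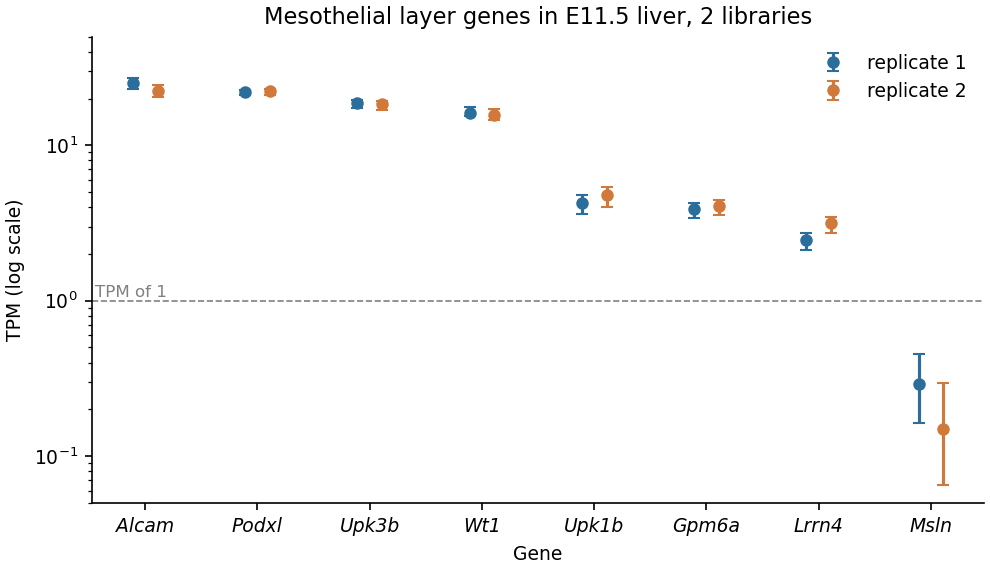
TPM (log axis) of the 8 measured genes in each library. Points are deposited TPM values, bars the deposited credibility intervals, whose level is not given, and the dashed line a TPM of 1. The first 4 genes lie above 15 TPM in both libraries, the next 3 between 2.47 and 4.78 TPM, and Msln under 0.3 TPM.

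The order of neighbours was clear for 4 of 7 pairs, a clear order being one found in each library, with deposited intervals that stayed apart and a mean gap above the gap between libraries. Podxl exceeded Upk3b 1.19-fold (log2 ratio of TPM 0.25 ± 0.03). Wt1 exceeded Upk1b 3.49-fold (1.80 ± 0.15), which is the gap between the upper and the middle tier. Gpm6a exceeded Lrrn4 1.42-fold (0.50 ± 0.19), and Lrrn4 exceeded Msln 9.26-fold (3.21 ± 0.69). All ratios of neighbours were taken after 0.1 TPM was added to each level. That addition lowers the ratio to Msln, whose mean level was 0.22 TPM. Alcam and Podxl (0.09 ± 0.14), Upk3b and Wt1 (0.22 ± 0.01), and Upk1b and Gpm6a (0.18 ± 0.06) were not separated by this rule. Alcam was above Podxl in replicate 1 and just below it in replicate 2. No p-value is given, because with 2 values an exact sign-flip test has a smallest p of 0.5.

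Wt1 encodes a zinc finger transcription factor of the coelomic epithelium, kidney and gonad (ENSMUSG00000016458.9, chromosome 2, 105126529 to 105173616, plus strand). Its level was 16.3 TPM in replicate 1, from 1060 estimated counts, and 15.7 TPM in replicate 2, from 860. The deposited intervals were 15.3 to 17.7 TPM and 14.6 to 17.1 TPM, so they overlapped. Its level exceeded that of 71.7% of protein-coding genes in replicate 1 and 70.1% in replicate 2. The antisense gene Wt1os begins 18 bases from Wt1 on the opposite strand and had 34 counts in replicate 1 and 41 in replicate 2, at 0.91 and 1.04 TPM. After 0.1 TPM was added to each level, Wt1 stood 15.01-fold above its antisense neighbour (log2 ratio 3.91 ± 0.16). The 2 genes do not overlap in the annotation used here.

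Transcripts of Wt1 differ in splicing and in their first exon, and 3 such choices are shown by sequence. The first is the use of a pair of splice donors 9 bases apart, which adds the amino acids lysine, threonine and serine (KTS) between the last zinc fingers. Forms with this insert are known for binding RNA and forms without it for binding DNA. The stretch joins 2 exons on the plus strand, at chr2:105169989-105172243, and capitals mark the 9 inserted bases as annotated.
Wt1 with KTS: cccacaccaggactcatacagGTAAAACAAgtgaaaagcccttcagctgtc
Wt1 without KTS: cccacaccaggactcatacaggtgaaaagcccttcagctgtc
The other choice within the coding part is an exon of 51 bases (chromosome 2, 105144142 to 105144192), shown in capitals with its flanks, at chr2:105143151-105163336.
Wt1 with the exon: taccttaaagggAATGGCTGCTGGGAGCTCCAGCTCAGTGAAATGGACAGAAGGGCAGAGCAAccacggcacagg
Wt1 without the exon: taccttaaagggccacggcacagg
The last is the first exon. Capitals mark the final 15 bases of the upstream first exon (chr2:105127428-105132952) or of an internal first exon inside the first intron (chr2:105131138-105132952), each followed by the shared exon.
Wt1 upstream first exon: CCATCCGCAACCAAGgatacagcacggtca
Wt1 internal first exon: CAGGAATGGAGAAGGgatacagcacggtca
In the annotation, the frame of the longest form, Wt1-205, opens at a ctg codon and has 517 codons. Those of Wt1-201 and Wt1-202 open at an atg codon, 10 bases before the end of the internal first exon, and have 288 and 302 codons.

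Transcripts with the KTS insert made up about 3 parts of Wt1 to 1 part without it in both pools. Of the Wt1 TPM assigned to transcripts that span this junction, the insert was present in 76.0% in replicate 1 and 75.9% in replicate 2 (76.0% ± 0.0880). The libraries differed little in this share. The 51-base exon was present in 65.8% and 57.8% of TPM on transcripts spanning it (61.8% ± 5.63), with replicate 1 higher. Transcripts from the upstream first exon held 47.6% and 49.2% (48.4% ± 1.09), so the internal first exon held 52.4% and 50.9%. These shares are sums of model estimates over transcripts, and no interval was computed for them.

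Shares of single transcripts are model estimates too, and for these, deposited intervals of TPM are at hand. Wt1-205, with the upstream first exon, the 51-base exon and KTS, led at 40.4% in replicate 1 and 38.1% in replicate 2. Wt1-201, with the internal first exon and KTS but without the 51-base exon, followed at 27.9% and 31.7%. Wt1-202, with the internal first exon and the 51-base exon but without KTS, held 21.2% and 15.1%. The deposited intervals of Wt1-205 (5.18 to 7.13 TPM in replicate 1, 4.59 to 6.53 TPM in replicate 2) overlapped those of Wt1-201 (2.83 to 6.20 TPM and 3.36 to 6.39 TPM) but lay above those of Wt1-202 (1.97 to 4.76 and 1.31 to 3.88 TPM). Wt1-204, the other form without KTS, took 1.26% and 7.10%, and the 2 retained-intron forms together 6.32% and 8.10%. Of the 8 transcripts in the tables, Wt1-202 and Wt1-204 lack KTS, and Wt1-202 differs from Wt1-205 in its first exon as well. Wt1-201 and Wt1-202, the forms with the internal first exon, differ from each other in both KTS and the 51-base exon. The KTS, 51-base exon and first exon shares are therefore tied to each other through the annotated combinations.

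**Figure D2:**
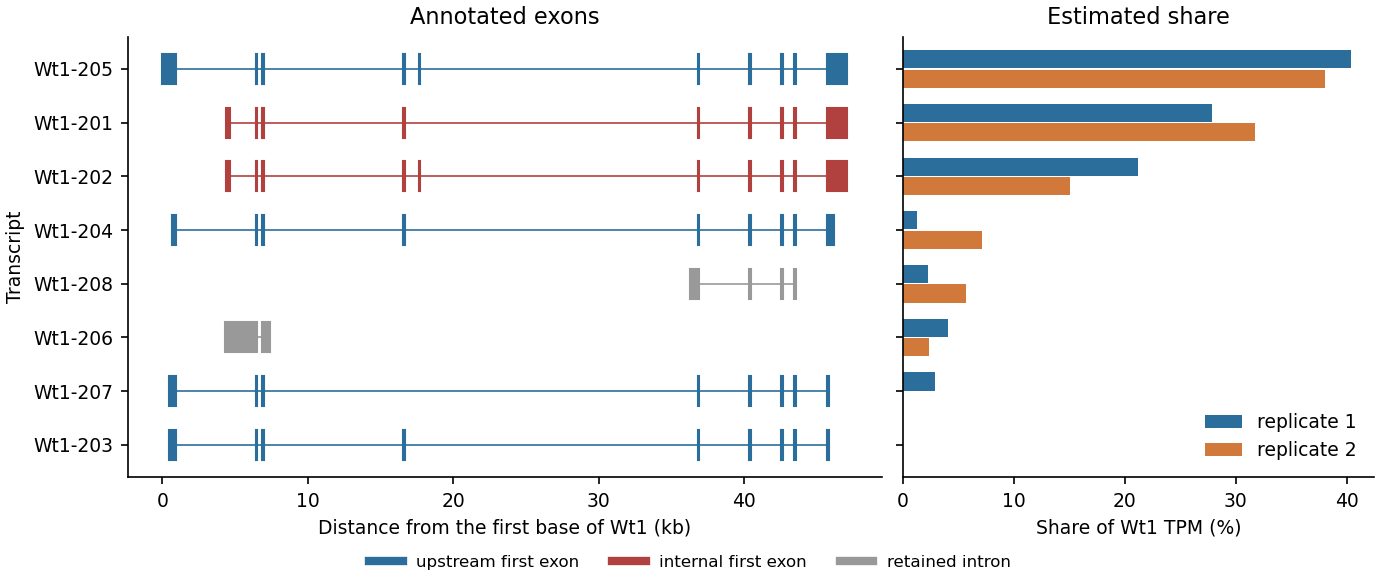
Left, annotated exons (boxes) of the 8 Wt1 transcripts against distance from the first base of the gene in kb, coloured by first exon. Right, share of Wt1 TPM in percent for each transcript and library. Wt1-205 is at 40.4% and 38.1%, and the 2 transcripts with the internal first exon follow at 15.1% to 31.7%.

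The uroplakins are membrane proteins named for the urothelial plaques of the bladder; the tetraspanin Upk1b pairs with Upk3a or Upk3b, and Upk3b marks mesothelium. Upk3b (ENSMUSG00000042985.6, chromosome 5, 136038496 to 136046487) reached 18.9 TPM from 1094 counts in replicate 1 and 18.5 TPM from 934 in replicate 2. Upk1b (ENSMUSG00000049436.4, chromosome 16, 38773184 to 38800328) was at 4.27 TPM and 4.78 TPM, from 184 and 180 counts. Both were alike in the 2 pools, and Upk3b stood 4.06-fold above Upk1b (log2 ratio 2.02 ± 0.13). The other 4 uroplakins were low. Upk1a was at 1.19 and 0.59 TPM and Upk3bl, a near relative of Upk3b, at 0.75 and 0.63 TPM. Upk2 had 1 count in replicate 1 and 0 in replicate 2, where 3 counts would be 0.172 TPM. Upk3a had no count in either; 3 counts would be 0.115 and 0.132 TPM, the highest levels that 0 counts allow. Of the 6 family members, Upk3b and Upk1b were the 2 detected in both libraries, beside 56.6% of all protein-coding genes.

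Msln encodes mesothelin, a lipid-anchored surface protein of adult mesothelium that binds Muc16 (ENSMUSG00000063011.6, chromosome 17, 25748613 to 25754378). Replicate 1 had 15 counts of it, or 0.29 TPM, and replicate 2 had 7, or 0.15 TPM. Both values were above the TPM that 3 counts give (0.0577 and 0.0661), but under a TPM of 1. After 0.1 TPM was added to each level, Podxl stood 71.6-fold above Msln (log2 ratio 6.16 ± 0.46). For a gene as low as Msln, this addition lowers the ratio. The relatives Mslnl, Otoa and Strc had between 0 and 8 counts in any library, and Mslnl, 282 bases from Msln on the opposite strand, had 0 in both. Among the 5 other transmembrane mucins, 1 was detected, beside 56.6% of all protein-coding genes. It was Muc13, an epithelial mucin (8.02 ± 0.474 TPM). Muc1 (0.365 ± 0.191 TPM), Muc4 (0.425 ± 0.149 TPM), Muc15, at 0 counts in both, and Muc20, at about 1 count in each, were under a TPM of 1.

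Podxl encodes podocalyxin, an anti-adhesive sialomucin of the CD34 family (ENSMUSG00000025608.9, chromosome 6, 31519488 to 31563981). Its 3000 counts in replicate 1 and 2661 in replicate 2 gave 22.2 and 22.4 TPM. The coding transcript Podxl-201 held 99.2% and 100% of this. Cd34, its relative on blood progenitors and endothelium, was at 28.6 ± 1.79 TPM, above Podxl in both libraries, and Podxl2 at 8.27 ± 0.969 TPM, which Podxl exceeded 2.68-fold. The proteins that tie podocalyxin to actin were all detected. Rdx (103 ± 3.88 TPM), Msn (96.8 ± 11.9 TPM) and Ezr (75.9 ± 3.44 TPM) are the ERM linkers, and Slc9a3r1 (93.4 ± 5.54 TPM) and Slc9a3r2 (18.6 ± 1.34 TPM) the adaptors; each is used by many cell types.

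Alcam encodes an adhesion protein of the immunoglobulin superfamily that binds itself and Cd6 (ENSMUSG00000022636.9, chromosome 16, 52248996 to 52454074). Its 3008 counts in replicate 1 gave 25.2 TPM and its 2266 in replicate 2 gave 22.2 TPM, the largest gap in TPM among the 8. Cd6, a surface receptor of T cells, had 0 counts in each, so levels up to 0.0636 and 0.0729 TPM are possible. Of the related adhesion genes, Bcam was at 15.4 ± 1.81 TPM and Mcam at 9.66 ± 0.0495 TPM, which Alcam exceeded 2.44-fold, while L1cam was under a TPM of 1 in both. Alcam has a short exon of 39 bases near the membrane that some transcripts skip. It is shown in capitals on the minus strand, with its flanks, at chr16:52268488-52270658.
Alcam with the exon: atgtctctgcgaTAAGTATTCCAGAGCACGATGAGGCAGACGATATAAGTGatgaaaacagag
Alcam without the exon: atgtctctgcgaatgaaaacagag
Of Alcam TPM on transcripts covering this site, 97.4% in replicate 1 and 100% in replicate 2 kept the exon (98.7% ± 1.83). The skipped form, Alcam-207, held 2.54% in replicate 1 and 0% in replicate 2, with deposited intervals of 0.128 to 1.54 TPM and up to 1.19 TPM. The full-length Alcam-201 held 72.8% and 70.0%.

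Gpm6a encodes a membrane glycoprotein of the proteolipid family, best known from neurons (ENSMUSG00000031517.7, chromosome 8, 54954843 to 55060871). Replicate 1 gave 3.89 TPM from 325 counts and replicate 2 gave 4.09 TPM from 298. Its close relative Gpm6b was at 3.74 ± 0.198 TPM, not separated from Gpm6a (log2 ratio 0.09 ± 0.12). Of 10 neural genes 8 were detected, beside 56.6% of all protein-coding genes, with medians of 1.80 and 2.26 TPM. Gap43, a growth cone protein (16.3 ± 1.15 TPM), Snap25 (7.10 ± 0.191 TPM) and Tubb3 (5.09 ± 0.693 TPM) were above Gpm6a, and Elavl3 and Syp were under a TPM of 1. The part of neural cells in the Gpm6a level was not tested.

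Lrrn4 encodes a leucine-rich repeat membrane protein used as a mesothelial marker (ENSMUSG00000043110.2, chromosome 2, 132868305 to 132880891). It was at 2.47 TPM, from 231 counts, in replicate 1 and at 3.15 TPM, from 257, in replicate 2, the lowest level of the detected genes in both pools. Within its family it was in the middle. Lrrn3 (6.06 ± 1.04 TPM) stood 2.11-fold above it and Lrrn1 (4.26 ± 0.403 TPM) was also higher in both libraries, while Lrrn2 was at 1.09 ± 0.0919 TPM and Lrrn4cl at 0.175 ± 0.134 TPM.

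**Figure D3:**
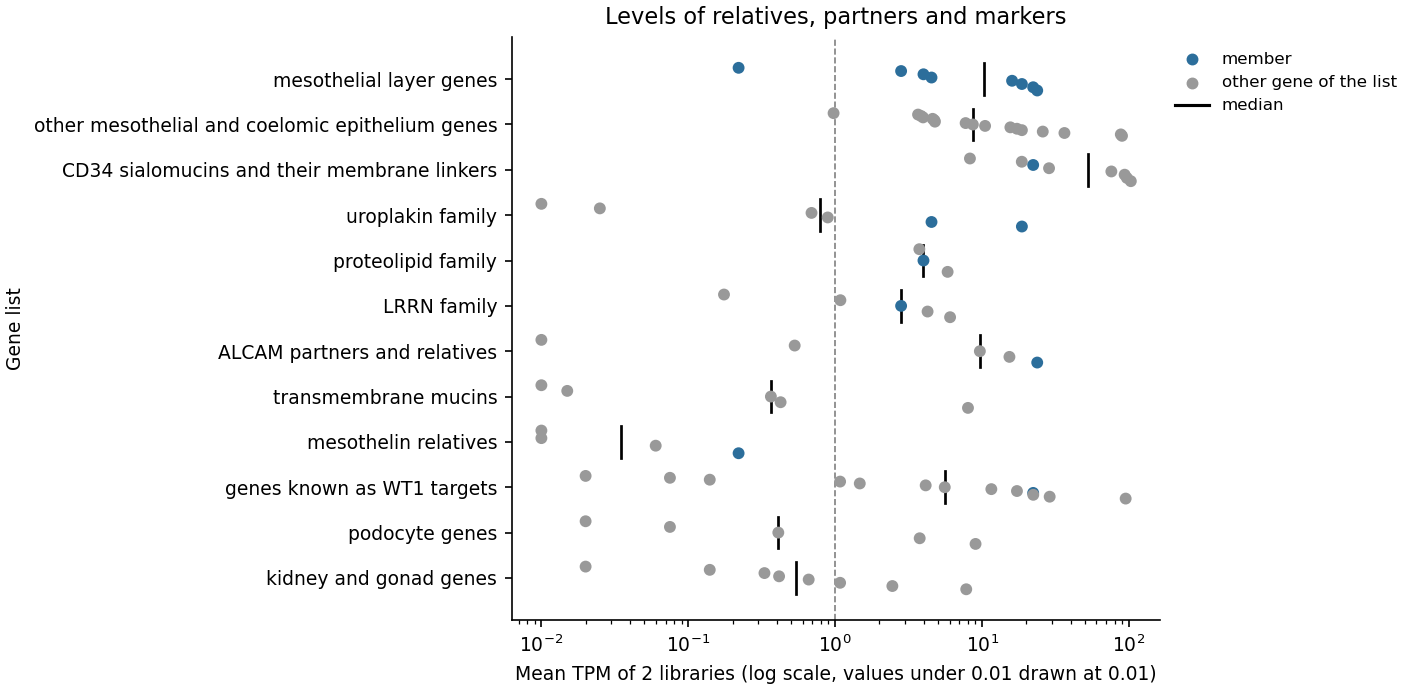
Mean TPM over the 2 libraries (log axis, values under 0.01 drawn at 0.01) of each gene in 12 lists. Blue points are the 8 measured genes, grey points other genes, black bars list medians, and the dashed line a TPM of 1. Upk3b and Upk1b are the uroplakins to the right of the line, and Msln lies at 0.220 TPM.

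Other genes known from mesothelium and coelomic epithelium were present. Of 17, 16 were detected, beside 56.6% of all protein-coding genes, with library medians of 9.53 and 7.77 TPM. The highest were the keratins Krt18 (89.6 ± 1.45 TPM) and Krt8 (88.0 ± 3.66 TPM) and the factor Gata4 (36.4 ± 2.63 TPM), all 3 of which hepatoblasts or mesenchyme also express. Tbx18, a factor of the epicardium and other coelomic linings, was the gene that missed detection, at 1.24 TPM and 0.71 TPM. By contrast, several podocyte, kidney and gonad genes that accompany Wt1 elsewhere were low. Of the podocyte genes, Synpo was detected (9.03 ± 1.20 TPM), and Magi2 and Nphs1 were under a TPM of 1. Of 8 kidney and gonad genes, Osr1 (7.80 ± 0.382 TPM) and Lhx9 (2.45 ± 0.594 TPM) were detected, Amhr2 was at 0.85 and 1.31 TPM, and Six2, Pax8, Emx2, Nr5a1 and Pax2 were under a TPM of 1.

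Among 13 genes known as WT1 targets in some tissue, Podxl included, 9 were detected, with medians of 4.70 and 6.44 TPM. For this count and those below, the share detected over all protein-coding genes was 56.6%. Epor, the erythropoietin receptor of red cell precursors, led at 94.9 ± 2.44 TPM, followed by the integrin Itga4 (28.8 ± 2.87 TPM) and the growth arrest gene Gas1 (22.3 ± 0.248 TPM). Areg, Nphs1 and Nr5a1 were under a TPM of 1. All 5 genes of WT1 binding proteins were detected, with Wtap, a subunit of the RNA methylation complex, at 78.2 ± 2.36 TPM, Ciao1 at 56.1 ± 2.39 TPM and Pawr at 11.2 ± 0.693 TPM. Markers of other cells that use Podxl or Alcam were present. Endothelial genes had medians of 19.7 and 19.3 TPM with 9 of 9 detected, led by Egfl7 (134 ± 6.24 TPM), Stab1 and Kdr. Blood stem and progenitor genes had medians of 28.04 and 31.4 TPM with 5 of 6 detected, led by Kit (41.4 ± 7.62 TPM), Meis1 and Myb, with Gfi1 under a TPM of 1. Stellate and mesenchymal genes had medians of 10.1 and 11.6 TPM with 7 of 7 detected, led by Col1a1 (161 ± 10.9 TPM), Acta2 and Pdgfrb. The part of these cells in the levels of Podxl and Alcam was not tested.

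Between the pools the set differed little. After scaling of counts, replicate 1 was the higher one for 6 of the 8 genes. The median of their log2 ratios was 0.10, against 0.00 for 14418 protein-coding genes at a mean of 10 or more counts. Alcam had 2905 scaled counts in replicate 1 and 2347 in replicate 2 (log2 ratio 0.31, 95% exact binomial interval of the counts 0.23 to 0.39). Wt1 had 1024 and 891 (0.20, 0.07 to 0.33). The interval of Upk3b only just excluded 0 (0.13, 0.00 to 0.26). Podxl (0.07), Gpm6a (0.02), Upk1b (-0.07) and Lrrn4 (-0.25) had intervals that included 0. On TPM, whose sum includes the spike-ins, the median was 0.009 and the 8 genes divided 4 to 4, with log2 ratios of 0.05 for Wt1 and 0.18 for Alcam. The intervals cover counting error only. They excluded 0 for 3 of the 8, and for 40.5% of the protein-coding genes.

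Only Msln was 1.5-fold or more apart, with 15 counts in replicate 1 and 7 in replicate 2 (log2 ratio 0.95, interval -0.38 to 2.53), so a difference was not detectable at this depth. That is 1 of 8, beside 8.22% of protein-coding genes. Heart muscle genes, in contrast, were higher in replicate 1 in 10 of 10 cases, all past 1.5-fold, with a median log2 ratio of 1.57 and summed levels of 288 and 125 TPM. The epicardium that covers the heart is a mesothelium too. The heart muscle genes had log2 ratios of 0.93 to 2.20, and that list includes genes already seen to differ between the pools. In the same libraries the 7 detected members had log2 ratios between -0.25 and 0.31, and Msln 0.95. The part of heart tissue in these levels was not tested. Tbx18, named here after its values were seen, was the 1 gene of the other 17 mesothelial genes past 1.5-fold (log2 ratio 0.90, interval 0.49 to 1.33). The part of heart tissue in its level was not tested either.

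**Figure D4:**
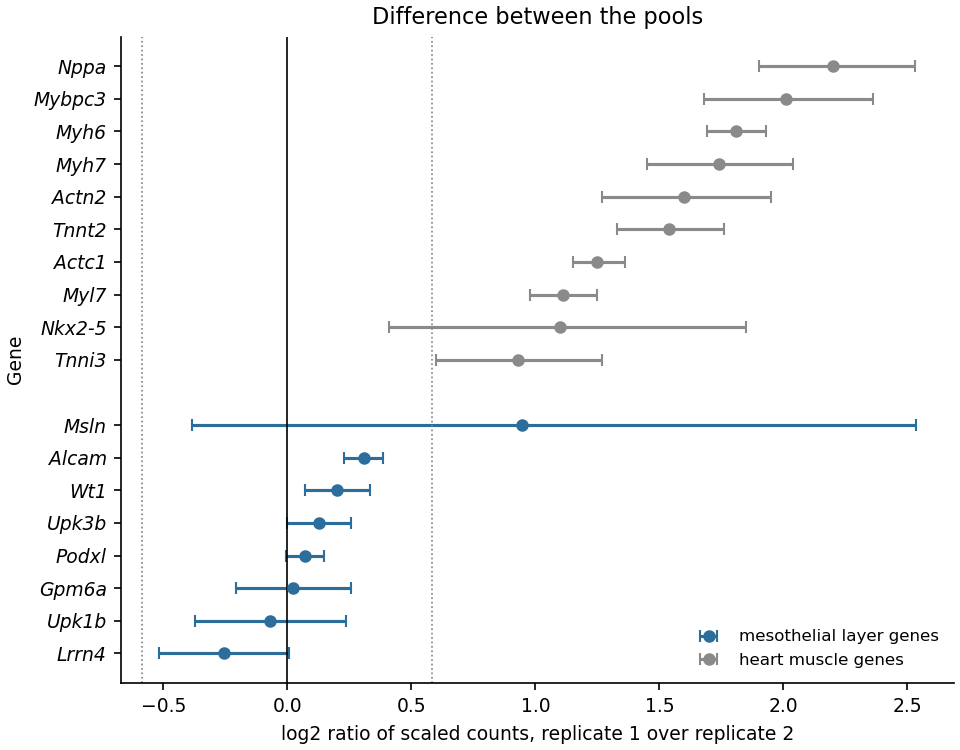
Log2 ratio of scaled counts, replicate 1 over replicate 2, for the 8 measured genes (blue) and 10 heart muscle genes (grey). Bars are 95% exact binomial intervals of the counts, the solid line is equality and dotted lines mark 1.5-fold. All blue points but Msln lie between the dotted lines, and all grey points lie to the right of them.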

How the data were processed

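Total RNA of 2 liver pools was measured, 1 library each. Per the labels, RNA was extracted with a mirVana kit, a protocol named for Smart-seq was followed and the assembly was mm10; GENCODE M4 is named in notes deposited beside the tables. Aligner, quantifier and use of strand: not given in the sources used here. Gene and transcript tables deposited by the authors hold estimated counts, TPM, FPKM and the percent of each gene's TPM held by each transcript, with posterior means and credibility intervals of TPM. TPM is relative to all features, spike-ins included.

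Symbols, exons, coordinates and the printed transcript sequences came from GENCODE M21 on GRCm38, matched on the identifier without version; 42462 of 43346 genes matched. The 8 Wt1 and 7 Alcam transcripts had the same lengths in both annotations, while those of Upk3b, Upk1b and Gpm6a differed, so their coordinates may differ from those used for counting. Gene-level estimates of the 8 members were whole numbers in both libraries.

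Estimated counts, rounded to whole numbers, were scaled with TMM from edgeR 4.0.16 in R 4.3.3 over genes whose CPM was at least 1 in each library, with 0.5 counts added; DESeq2 1.42.0 size factors, totals and TPM were alternatives. Ratio intervals are 95% exact binomial. Orders and log2 ratios between genes used TPM with a pseudocount of 0.1, while the spans of mean level used none. A count of 0 allows up to 3 counts. Reads are not independent molecules, so intervals and limits cover counting error only. Ratio code was tested on simulated counts that held counting error only, so that test does not cover the wider spread between these pools. Python 3.11.15 and scipy 1.17.1 did the rest. Transcript classes were read from the exons.

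The members and lists were chosen with earlier results of these data known, and the heart muscle list includes genes already seen to differ between the pools. Named genes were all members, the 3 highest genes of each list, and up to 5 list genes under a TPM of 1 in both libraries; other list genes that are named were chosen after their values were seen. Some genes of the podocyte and proteolipid lists are not reported here.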

Additional observations from a re-analysis of the deposited data

How the results depend on the processing

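The number of detected members, 7 of 8, did not change under thresholds of 0.5 or 2 TPM, posterior mean TPM, TPM of mouse genes only, FPKM, a count of 10 or more, or either library alone. The median of the members was 10.3 TPM also with posterior means (10.32), 11.8 on TPM of mouse genes only and 7.53 on FPKM; that of the other mesothelial genes was 9.95 on TPM of mouse genes only. Neighbour pairs ordered ranged from 4 without replicate 1 to 5 without replicate 2. At 2-fold in place of 1.5-fold, 0 members and 3.06% of protein-coding genes were apart; with no filter on low counts 18.7% of those genes were 1.5-fold apart. The median log2 ratio of members lay between 0.009 (TPM) and 0.108 (total counts) over 4 alternatives. The share of Wt1 with KTS was 75.3% from posterior means and 79.6% when estimated counts, uncorrected for length, were summed; on such counts the share with the 51-base exon was 67.9% and from the upstream first exon 52.9%. The median of the heart muscle genes was 5.85 TPM without replicate 1 and 15.1 TPM without replicate 2. No paired analysis was possible because both libraries belong to 1 group. With 2 libraries, spread rests on 1 difference, and depth limits Msln, whose 22 counts cannot place its ratio.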

Other observations

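Growth factors that mesothelial cells of the fetal liver are known to supply were all detected, 4 of 4, beside 56.6% of protein-coding genes. Their library medians were 40.5 and 38.7 TPM. Mdk, the heparin-binding factor midkine, was at 377 ± 7.69 TPM and its relative Ptn, pleiotrophin, at 74.9 ± 3.48 TPM. Hgf, the ligand of the receptor Met, was far lower, at 3.27 and 4.96 TPM, and Rspo1, an enhancer of WNT signalling, at 3.73 and 4.20 TPM. These values do not show which cells made the transcripts, since mesenchyme makes several of them too.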
